A study of Mus musculus with 8 samples.

Results

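The transcripts described here encode the folding machinery of the endoplasmic reticulum and the unfolded protein response that controls it. They form a hand-picked set of 41 genes, of which 40 had a probe set assigned to exactly 1 gene symbol, out of 18193 genes measured. Sec61g was found on probe sets with several symbols alone and has no value here. The livers came from male C57BL/6 mice aged 92 to 101 days, 4 labelled MTAP+/- (heterozygous) and 4 labelled MTAP+/+ (wild-type), 1 Affymetrix array per mouse. Mtap encodes methylthioadenosine phosphorylase, which recycles methylthioadenosine to methionine and adenine for reuse. The labels give no treatment, litter, collection time or batch, and nothing on how the altered allele was made. P-values set the genotype difference against the spread between these mice.

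Secreted and membrane proteins enter the endoplasmic reticulum through the Sec61 channel, fold with the help of the chaperone BiP (Hspa5), its J-domain partners, lectins and disulfide isomerases, and are sent back to the cytosol for degradation when they fail. Unfolded protein is sensed by IRE1 (Ern1), PERK (Eif2ak3) and ATF6, which raise the transcription of chaperone and degradation genes and slow translation. Hepatocytes secrete most plasma proteins and therefore carry a large endoplasmic reticulum.

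Many genes of this response are known to carry the endoplasmic reticulum stress element (ERSE) near their start, at which ATF6 and spliced XBP1 act together with the CCAAT-binding factor NF-Y. RefSeq promoter windows of GRCm38.p6, from 250 bases before to 50 after a gene's start, were found for 34 of the 41 genes. The exact ERSE, CCAAT followed by 9 bases of any kind and CCACG, on either strand, occurred in 9 of these 34 (26.5%) and in 39 of 32851 windows over all genes (0.119%). The members were picked as pathway genes and the element was defined on genes such as these, so this share describes the set and is not a result of the arrays. The stretches below are shown because they set 3 genes with an ERSE and log2 differences of -0.61, -0.68 and -0.63 (Hspa5, Creld2 and Syvn1, none past the adjusted threshold) beside 3 with an ERSE and differences of 0.06, 0.01 and -0.10 (Hsp90b1, Calr and Pdia6), and beside Dnajb9, the gene past that threshold, whose window holds no exact ERSE. The E-box CACGTG was the only motif found in the Dnajb9 window among those searched for, and 7.15% of all windows hold it. Its part in the Dnajb9 difference was not tested. Each stretch is written 5′ to 3′ in the direction of the gene, with the ERSE, or for Dnajb9 the E-box, in capitals.
Hspa5, chr2:34771995-34772058, plus strand: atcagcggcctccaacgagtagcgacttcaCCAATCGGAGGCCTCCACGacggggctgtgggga
Creld2, chr15:88819490-88819553, plus strand: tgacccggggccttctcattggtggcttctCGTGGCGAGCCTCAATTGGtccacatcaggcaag
Syvn1, chr19:6046502-6046565, plus strand: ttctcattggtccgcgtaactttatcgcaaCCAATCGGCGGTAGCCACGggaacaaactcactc
Hsp90b1, chr10:86705518-86705686, minus strand: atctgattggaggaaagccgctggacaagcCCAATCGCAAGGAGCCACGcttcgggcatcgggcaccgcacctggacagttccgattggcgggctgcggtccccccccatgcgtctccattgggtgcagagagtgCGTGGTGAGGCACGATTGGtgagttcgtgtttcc
Calr, chr8:84847060-84847123, minus strand: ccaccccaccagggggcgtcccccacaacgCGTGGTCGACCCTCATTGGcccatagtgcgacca
Pdia6, chr12:17266461-17266524, plus strand: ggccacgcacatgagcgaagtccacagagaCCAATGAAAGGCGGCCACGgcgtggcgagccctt
Dnajb9, chr12:44210155-44210205, minus strand: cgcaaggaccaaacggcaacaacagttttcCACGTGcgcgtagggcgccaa

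In Hspa5, Syvn1 and Pdia6 the element reads forward, in Creld2 and Calr in reverse, and Hsp90b1 holds it once in each direction. Canx, Derl3 and Dnajc3 were the other genes with an exact match. The shorter ERSE-II, ATTGG followed by 1 base of any kind and CCACG, on either strand, was found in Dnajb11 and Herpud1 and in 0.0365% of all windows. With 1 mismatch allowed among the 10 fixed letters, an ERSE occurred in 16 of the 34 members and in 1.5% of all windows. The letters TGACGTGG, a form of the unfolded protein response element, occurred in 0 of the 34 and in 0.676% of all windows, on either strand. CACGTG, a palindrome known as a site of clock factors among others, occurred in 5 of the 34 (Atf6b, Calr, Derl3, Dnajb9 and Ssr1) and in 7.15% of all windows. TGACGTCA, the cyclic AMP response element, occurred in 0 of the 34 and in 1.79% of all windows. No exact matches of different motifs overlapped in these windows. A match describes letters in this window and no match says nothing about the factor.

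The 8 arrays were alike in scale (medians 3.92 to 3.98 log2 units) but not in profile. On the first principal component, with 28.3% of the variance, heterozygous livers 1, 3 and 4 and wild-type liver 4 scored from -24.91 to -23.43 and the other 4 from 3.58 to 35.57. On the second, with 22% of the variance, the genotypes did not overlap, with heterozygous livers at -44.12 (liver 2) to -4.03 and wild-type livers at 11.25 to 29.47. Mtap was lower in heterozygous liver, at 6.90 ± 0.12 (SD, n = 4) against 7.69 ± 0.10 (limma adjusted p = 0.0281). The 8 hepatocyte markers averaged 13.30 to 13.50 in heterozygous and 13.31 to 13.43 in wild-type liver. Markers of plasma and B cells and of pancreatic acinar cells, both rich in these chaperones, had means under 6 for 8 of 9 and 7 of 8 measured genes, and the exceptions were Sdc1 and Cela1. Their summed linear signals were 1019 to 1545 in heterozygous against 899.6 to 1213 in wild-type liver for plasma and B cells, and 603.8 to 1001 against 955 to 1481 for acinar cells. These sums rest mostly on Sdc1 (10.08 against 9.89) and on Cela1 (9.43 against 9.99, log2 difference -0.55), and the list medians of the log2 difference were 0.15 and -0.03. For 10 Kupffer cell and macrophage markers the sums were 3900 to 5000 against 3446 to 4115, with a median log2 difference of 0.41 and 8 of 10 above 0. By limma 0 passed an adjusted p of 0.05. At an unadjusted p under 0.05 by limma 4 of the 10 were higher, against 4.4% of all genes. These were Mpeg1 (0.65), Adgre1 (0.78), Cd68 (0.545) and Timd4 (0.50). The 2 markers below 0 were Clec4f (-0.27) and Csf1r (-0.02). A clock score, the mean of 6 genes including Dbp and Per3 minus that of 5 genes including Arntl and Cry1, did not overlap between genotypes, at 1.43 to 2.64 in heterozygous and 0.141 to 1.24 in wild-type liver. Its genes were chosen with earlier results of these data known, so this is a description with no test. The part of cell makeup in the differences below was not tested, and the fits with the clock score as a covariate are given there.

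Dnajb9, a partner of BiP, was the 1 gene of the 40 past an adjusted p of 0.05 by limma, and it was lower in heterozygous liver. Manf, Creld2, Eif2ak3 and Hspa5 came next in order of p, with log2 differences of -0.66, -0.68, -0.68 and -0.61, and did not pass the adjusted threshold. By limma, the share of members past an adjusted p of 0.05 over all genes was 2.5%, where 0.0495% of all genes were called in either direction and 0.022% were called lower. At an unadjusted p under 0.05, 9 were lower (22.5%, against 4.74% of all genes) and 1, Atf6, was higher (2.5%, against 4.4%), so that 10 of 40 passed in either direction, against 9.14% of all genes. For 8 of the 40 (20%) every heterozygous value lay below every wild-type value, which held for 2.7% of all genes, and the reverse held for 0, against 1.95%. The median log2 difference over the 40 genes, heterozygous minus wild-type, was -0.09, against -0.02 over all genes, and 60% of members and 54.7% of all genes lay below 0. The members were chosen with earlier results of these data known, so these shares describe the set and are not a test. Without heterozygous liver 1, the lowest of the 8 livers for 18 of the 40 genes, the median was -0.007 and 8 were lower at an unadjusted p under 0.05, against 3.68% of all genes.

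**Figure D1:**
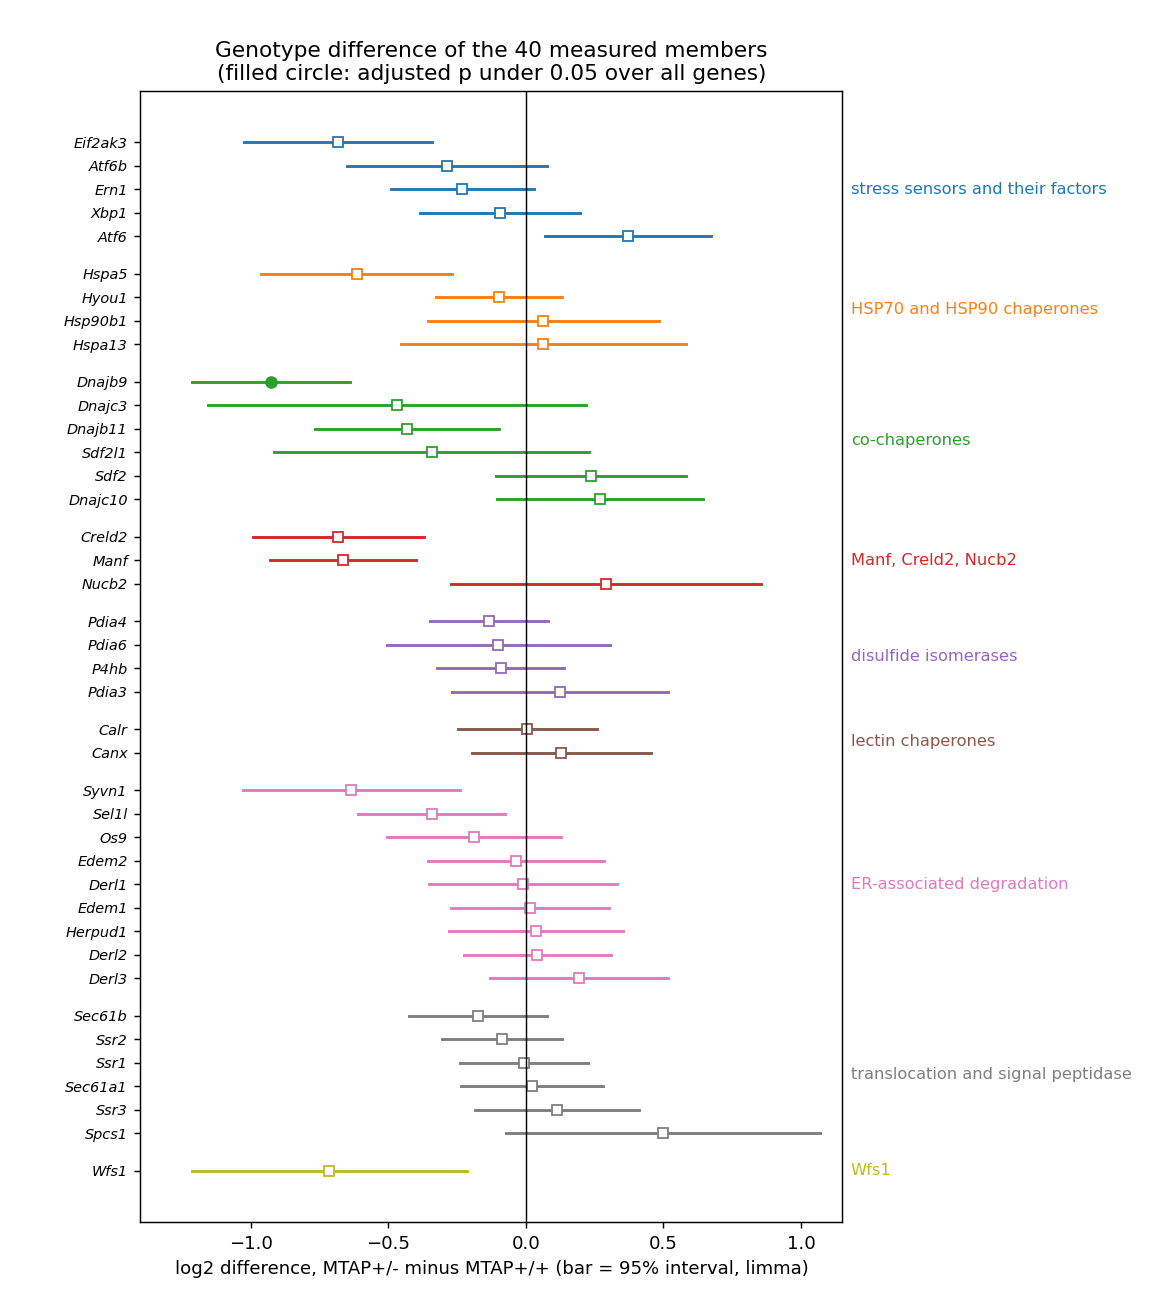
Log2 difference between MTAP+/- and MTAP+/+ liver (x axis) for the 40 measured genes (rows, grouped by role), with 95% intervals from limma over 4 mice per genotype. The filled circle marks Dnajb9 (-0.93), past an adjusted p of 0.05, and open squares mark the other 39, most of whose intervals cross 0.

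Among the 5 stress sensors and their factors, 1 was lower and 1 higher at an unadjusted p under 0.05 by limma. Over all genes 4.74% were lower and 4.4% higher at that p. Eif2ak3, the kinase PERK that slows translation under stress, had signals of 4.90, 5.40, 4.86 and 4.83 in heterozygous livers 1 to 4 and 5.71, 5.98, 5.45 and 5.59 in wild-type livers 1 to 4. The groups did not overlap, and heterozygous liver 2 stood above the other 3. Its log2 difference was -0.68 ± 0.15 (SE, adjusted p = 0.226). This probe set was dim, and the others for Eif2ak3, at means of 2.91 and 2.76, were close to the lowest signals and differed by 0.13 and -0.09, and averaging all of them gave -0.21. Atf6, whose cleaved form is a transcription factor for chaperone genes, had signals of 8.03, 7.82, 8.08 and 7.93 in heterozygous livers 1 to 4 and 7.33, 7.53, 7.55 and 7.96 in wild-type livers 1 to 4. Wild-type liver 4 lay within the heterozygous range, and the other 3 wild-type livers lay below it. The difference was 0.37 ± 0.14 (adjusted p = 0.439, exact permutation p = 0.0857), while the other Atf6 probe sets were at -0.05 and -0.22 and the sign turned, to -0.03, with the clock score as a covariate.

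Ern1, the endoribonuclease IRE1, gave 8.44, 8.94, 8.69 and 8.72 in heterozygous livers 1 to 4 and 9.03, 8.88, 8.86 and 8.93 in wild-type livers 1 to 4. Heterozygous liver 1 was lowest and heterozygous liver 2 lay inside the wild-type range, and the difference was -0.23 (95% interval -0.49 to 0.03). A second Ern1 probe set was at 0.40. Atf6b, a relative of Atf6, was dim. It gave 4.50, 4.55, 4.51 and 4.64 in heterozygous livers 1 to 4 and 4.98, 4.33, 4.81 and 5.23 in wild-type livers 1 to 4. The heterozygous signals lay inside the wild-type range, and the difference was -0.29 (-0.65 to 0.08). Xbp1, the factor activated when IRE1 splices its mRNA, was at 11.25 against 11.35, a difference of -0.09 (-0.39 to 0.20). A total signal such as this does not separate spliced from unspliced Xbp1.

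Of the 4 HSP70 and HSP90 chaperones, 1 was lower at an unadjusted p under 0.05 by limma, against 4.74% of all genes. Hspa5 encodes BiP, the central chaperone that also holds the sensors inactive, and its signals were 11.59, 11.95, 12.08 and 11.83 in heterozygous livers 1 to 4 and 12.29, 12.91, 12.42 and 12.29 in wild-type livers 1 to 4. Every heterozygous liver was below every wild-type liver, with heterozygous liver 1 lowest and wild-type liver 2 highest. The heterozygous level was 65.3% (95% interval 51.3 to 83.1) of wild-type (log2 difference -0.61 ± 0.16, SE, adjusted p = 0.272). The second bright Hspa5 probe set was at -0.52 and another, at a mean of 7.78, at 0.05. Hsp90b1, the endoplasmic reticulum member of the HSP90 family, ranged from 11.17 to 11.71 in heterozygous and 11.01 to 11.95 in wild-type liver, a difference of 0.06 (-0.36 to 0.48). The intervals of Hspa5 (-0.96 to -0.27) and Hsp90b1 overlap, and the difference between both genes was not tested. Hyou1, an exchange factor for BiP, was at -0.10 (-0.33 to 0.13), and Hspa13, an HSP70-like protein, at 0.06 (-0.45 to 0.58).

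The co-chaperones held the one gene past the threshold. Dnajb9 encodes a J-domain protein that recruits BiP to IRE1 and to clients for degradation, and its signals were 8.91, 9.22, 9.23 and 8.98 in heterozygous livers 1 to 4 and 9.70, 10.12, 10.06 and 10.17 in wild-type livers 1 to 4. No heterozygous liver reached the wild-type range, and the gap was wider than the range of the heterozygous livers. Wild-type liver 4, which lay beside 3 heterozygous livers on the first principal component, had the highest signal of the 8. Means were 9.09 ± 0.17 (SD over 4 mice) for heterozygotes against 10.01 ± 0.21 (SD) for wild types, so that heterozygous livers held 52.6% (95% interval 43.1 to 64.3) of the wild-type signal (log2 difference -0.93 ± 0.13, SE, adjusted p = 0.0448; exact permutation p = 0.0286, the smallest that 4 against 4 can give). In bulk liver, fewer cells of a type and less RNA per cell cannot be told apart. The adjusted p lay close to the threshold and passed it under 7 of 18 alternatives (range 0.0191 to 0.696), while the difference stayed between -1.28 and -0.87. Leaving out heterozygous liver 1 (adjusted p = 0.183), 3 (0.0879) or 4 (0.130), or wild-type liver 2 (0.140), 3 (0.2002) or 4 (0.0660) ended the call, and with the clock score as a covariate the difference was -1.28 with an adjusted p of 0.696.

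Dnajb11, a J-domain protein that hands unfolded chains to BiP, gave 8.61, 9.05, 9.03 and 8.90 in heterozygous livers 1 to 4 and 9.34, 9.71, 9.13 and 9.13 in wild-type livers 1 to 4. Its groups did not overlap, by a margin smaller than the spread among the wild-type livers, where liver 2 was highest. The difference was -0.43 ± 0.15 (SE, adjusted p = 0.412). Dnajc10, a reductase with a J domain, gave 6.65, 6.32, 7.003 and 6.87 in heterozygous livers 1 to 4 and 6.44, 6.09, 6.51 and 6.72 in wild-type livers 1 to 4. These groups overlapped, with liver 2 the lowest of each genotype, and the difference was 0.27 (-0.10 to 0.64). Other Dnajc10 probe sets were at 0.44 and 0.20. Dnajc3, a J-domain protein that can restrain PERK, had the widest spread of the 40 genes among wild-type livers, from 9.76 in liver 4 to 11.55 in liver 2. Its difference was -0.47 (-1.16 to 0.22), while its 4 other probe sets were at 0.28, 0.04, 0.24 and 0.21. Sdf2l1 and Sdf2, partners of Dnajb11, were at -0.34 (-0.91 to 0.23) and 0.24 (-0.11 to 0.58).

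Manf and Creld2, small proteins of the endoplasmic reticulum that are secreted under stress, followed Dnajb9 in order of p. Manf signals were 10.27, 10.80, 10.60 and 10.53 in heterozygous livers 1 to 4 and 11.19, 11.30, 11.23 and 11.12 in wild-type livers 1 to 4. The wild-type livers lay within a narrow band, all above the heterozygous ones. The heterozygous level was 63.1% (95% interval 52.5 to 75.8) of wild-type (log2 difference -0.66 ± 0.12, adjusted p = 0.123). Creld2, a protein with disulfide isomerase activity, gave 8.16, 8.19, 8.67 and 8.33 in heterozygous livers 1 to 4 and 8.99, 9.24, 9.06 and 8.78 in wild-type livers 1 to 4. Heterozygous liver 3 and wild-type liver 4 came closest to each other without overlap. The level was 62.4% (95% interval 50.3 to 77.3) of wild-type (-0.68 ± 0.14, adjusted p = 0.174). Neither passed the threshold under any of 18 alternatives, and their differences stayed between -0.75 and -0.57 for Manf and between -0.79 and -0.58 for Creld2. Nucb2, a calcium-binding protein and precursor of nesfatin, varied widely among heterozygous livers (5.52 to 6.69), with a difference of 0.29 (-0.27 to 0.86).

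**Figure D2:**
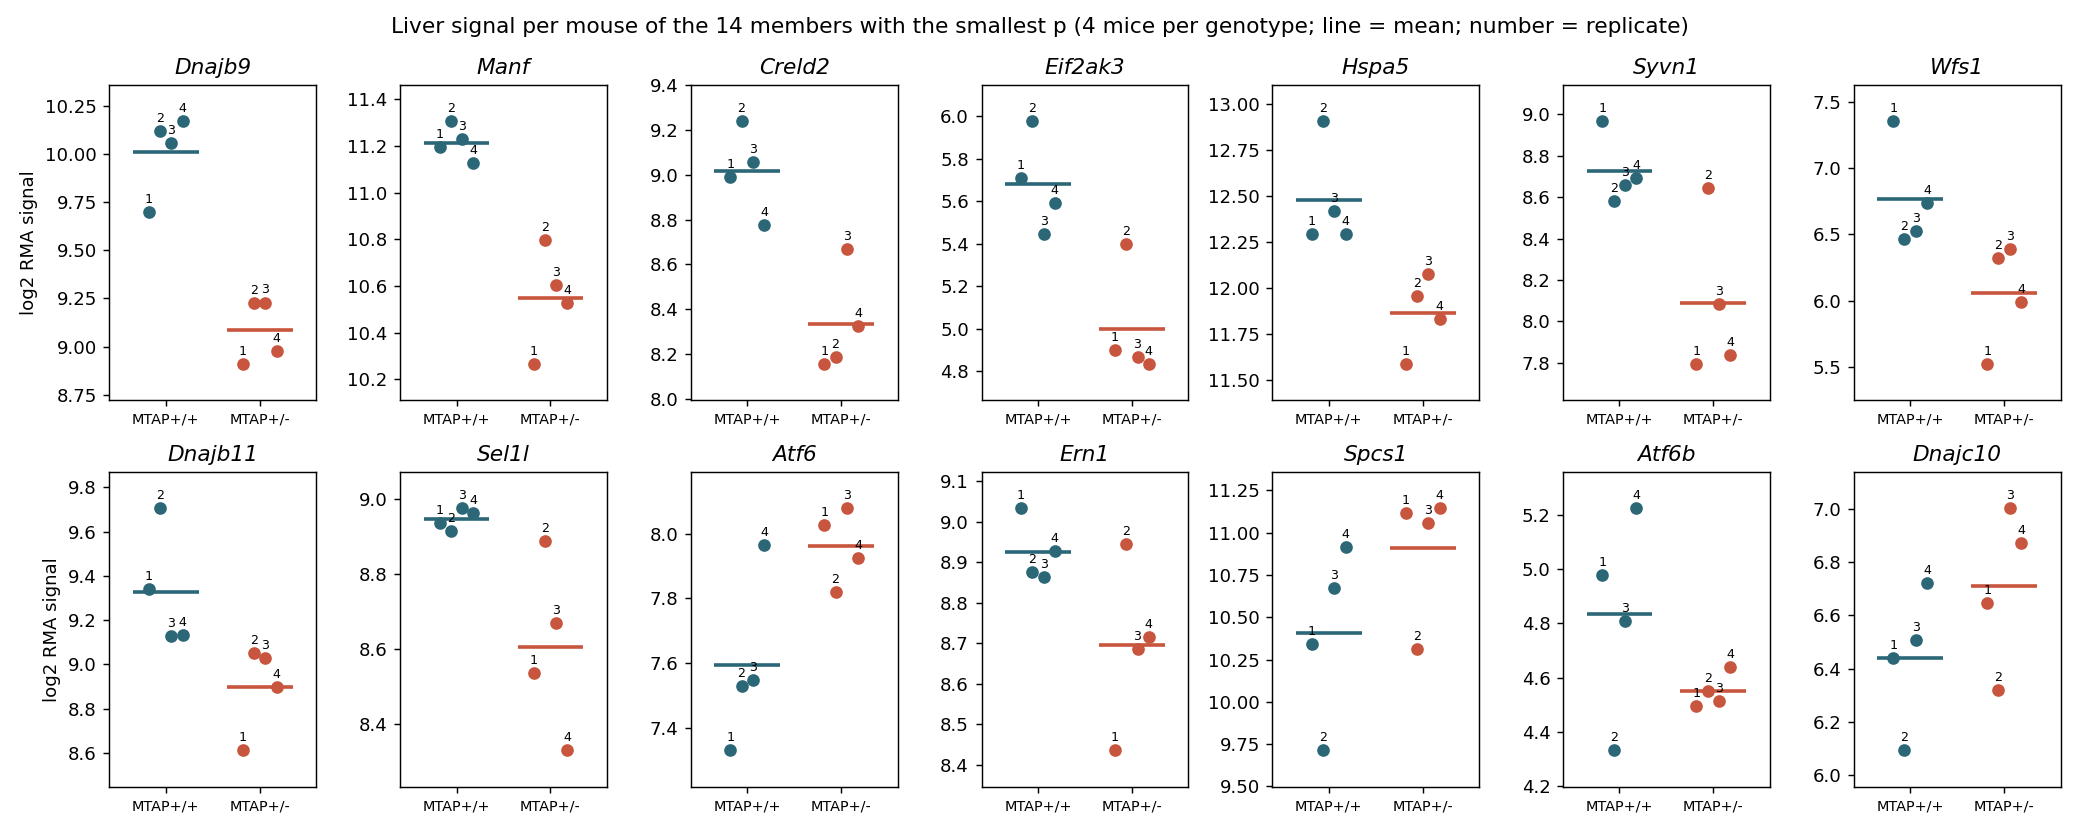
Log2 RMA signal (y axis, a separate scale for each gene) in each MTAP+/+ and MTAP+/- liver for the 14 genes with the smallest p, with replicate numbers beside the points and lines at the means of 4 mice. Dnajb9, Manf, Creld2, Eif2ak3, Hspa5, Wfs1, Dnajb11 and Sel1l show no overlap between genotypes, and the other 6 do.

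Disulfide isomerases and lectin chaperones showed no such gap. The 4 isomerases Pdia3, Pdia4, Pdia6 and P4hb, which form and reshuffle disulfide bonds, differed by 0.12, -0.14, -0.10 and -0.09. The lectins Calr and Canx, which hold glycoproteins while they fold, differed by 0.01 and 0.13. None of these 6 genes had an unadjusted p under 0.05 by limma, against 9.14% of all genes, and every one overlapped between genotypes. Their intervals still leave room for modest differences, the widest being that of Pdia6 (-0.51 to 0.30) and the narrowest that of Pdia4 (-0.35 to 0.08).

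Of the 9 degradation genes, 2 were lower at an unadjusted p under 0.05 by limma, against 4.74% of all genes. Both, Syvn1 and Sel1l, belong to the ubiquitin ligase core. Syvn1, the ligase HRD1, gave 7.80, 8.65, 8.08 and 7.84 in heterozygous livers 1 to 4 and 8.97, 8.58, 8.66 and 8.69 in wild-type livers 1 to 4. Heterozygous liver 2 reached into the wild-type range, and the other 3 lay well below it. The difference was -0.63 ± 0.18 (SE, adjusted p = 0.314, exact permutation p = 0.0571), and a second probe set was at -0.60. Sel1l, the adaptor that holds Syvn1 in its complex, gave 8.54, 8.89, 8.67 and 8.33 in heterozygous livers 1 to 4 and 8.93, 8.91, 8.97 and 8.96 in wild-type livers 1 to 4. Wild-type livers were nearly equal and all heterozygous livers lay below them, liver 2 by little. The difference was -0.34 ± 0.12 (adjusted p = 0.42), with other Sel1l probe sets from -0.33 to -0.004 and -0.18 when all were averaged. The remaining 7 members were Herpud1, Derl1, Derl2, Derl3, Edem1, Edem2 and Os9, which also take part in the degradation of misfolded proteins. They ranged from -0.19 (Os9) to 0.19 (Derl3), 0 of 7 at an unadjusted p under 0.05. Other Derl1 probe sets were at 0.11, 0.01 and 0.27, against -0.01 for the one used. Second probe sets of Derl2 and Os9 were at 0.33 and -0.30.

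Translocation genes overlapped between genotypes throughout. Of 6 measured genes of the Sec61 channel (Sec61a1, Sec61b), its TRAP partner (Ssr1, Ssr2, Ssr3) and signal peptidase (Spcs1), 0 had an unadjusted p under 0.05. Over all genes that share was 9.14%. Spcs1 had the largest difference, with signals of 11.12, 10.31, 11.06 and 11.15 in heterozygous livers 1 to 4 and 10.34, 9.71, 10.67 and 10.91 in wild-type livers 1 to 4. Liver 2 was the lowest of each genotype, and the ranges overlapped (0.50, -0.07 to 1.07). Of the other 5, the differences lay between -0.17 and 0.11, and a second Ssr1 probe set was at 0.51. Wfs1, the membrane protein wolframin that is linked to calcium balance and ATF6 turnover, gave 5.53, 6.32, 6.39 and 5.99 in heterozygous livers 1 to 4 and 7.35, 6.47, 6.53 and 6.74 in wild-type livers 1 to 4. Its groups were apart by a small gap, with wild-type liver 1 highest and heterozygous liver 1 lowest, and the difference was -0.71 ± 0.23 (SE, adjusted p = 0.355).

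**Figure D3:**
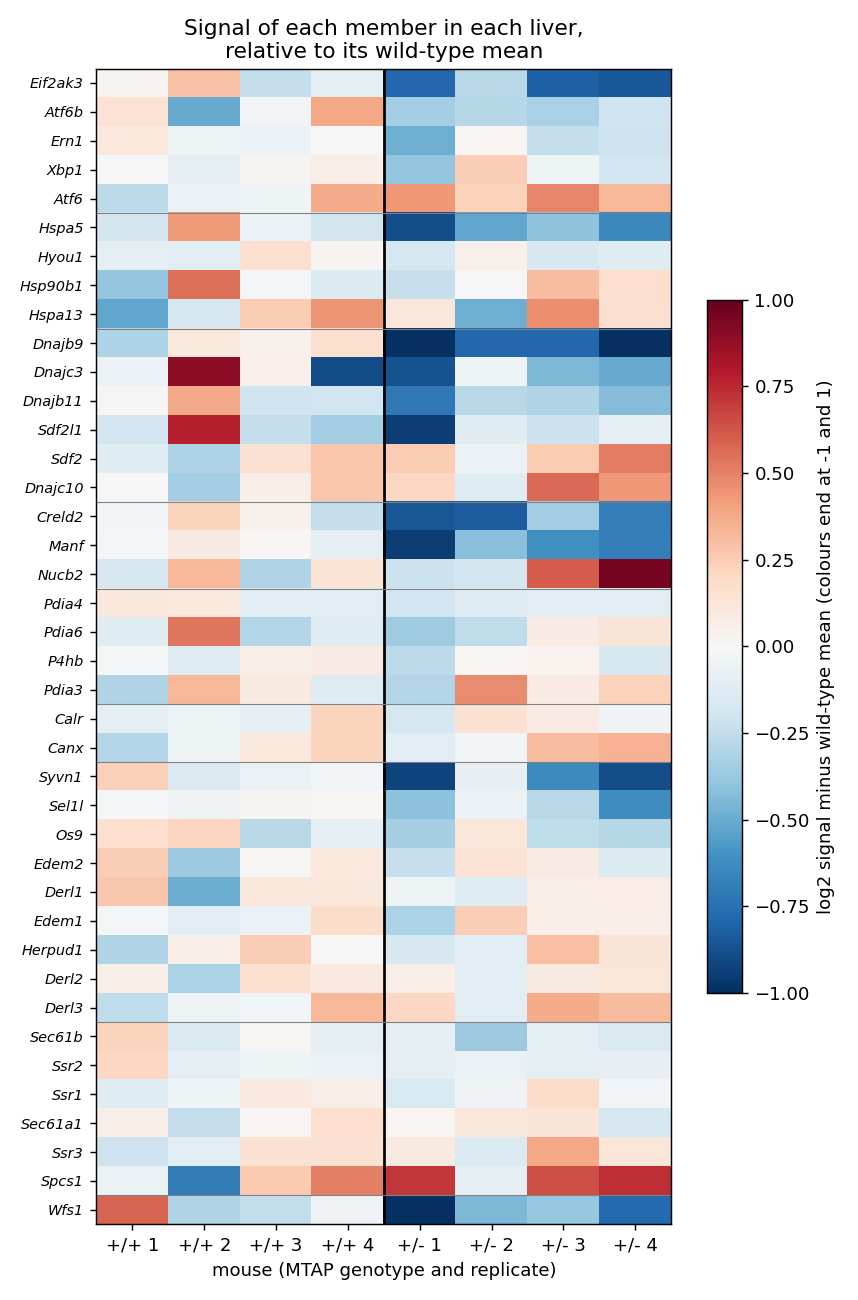
Log2 signal minus the gene's wild-type mean (colour, blue below and red above, with values beyond -1 or 1 drawn at the end colours) for the 40 genes (rows, grouped by role with grey lines) in the 8 livers (columns). Dark blue cells gather in the MTAP+/- columns for Dnajb9, Manf, Creld2, Hspa5, Eif2ak3, Syvn1 and Wfs1, and heterozygous liver 1 is the lowest liver for 18 of the 40 genes.

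The livers of 1 genotype were not uniform. Wild-type liver 2 was the highest of the 8 for 10 genes, among them Hspa5, Hsp90b1, Dnajc3, Dnajb11, Sdf2l1 and Pdia6, and the lowest for 8. Heterozygous liver 1 was the highest for 0. Hspa5 was still lower at -0.47 without wild-type liver 2 and at -0.52 without heterozygous liver 1 (limma adjusted p = 0.319 and 0.511, within 0.177 to 0.9999 over its alternatives). With all Hspa5 probe sets averaged it was at -0.36.

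No gene with an exact ERSE passed limma's adjusted threshold, which 1 of the 40 members passed at all. The 9 measured genes with an exact ERSE had a median log2 difference of -0.10, from -0.68 (Creld2) to 0.19 (Derl3), and the 24 measured genes with a window and no exact ERSE had a median of -0.09, from -0.93 (Dnajb9) to 0.50 (Spcs1). At an unadjusted p under 0.05, 3 of the 9 (Creld2, Hspa5 and Syvn1) and 5 of the 24, among them Dnajb9, were lower. Over all genes 4.74% were lower at that p, the share to set beside each such count in this paragraph. The 5 also include Dnajb11, which holds an ERSE-II, and Sel1l, which holds an ERSE with 1 mismatch. A difference between genes with and without a motif was not tested. The 5 genes with CACGTG had a median of -0.0073, with 1 of 5, Dnajb9, lower at that p. The 28 measured genes with a window and no CACGTG had a median of -0.0975, with 7 of 28 lower. The ERSE of Hspa5 lies 65 to 47 bases before the start and that of Syvn1 44 to 26 bases before it, while the elements shown above for Calr and Creld2 lie 162 to 144 and 126 to 108 bases before it. Manf and Atf6 have no window in the RefSeq table.

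**Figure D4:**
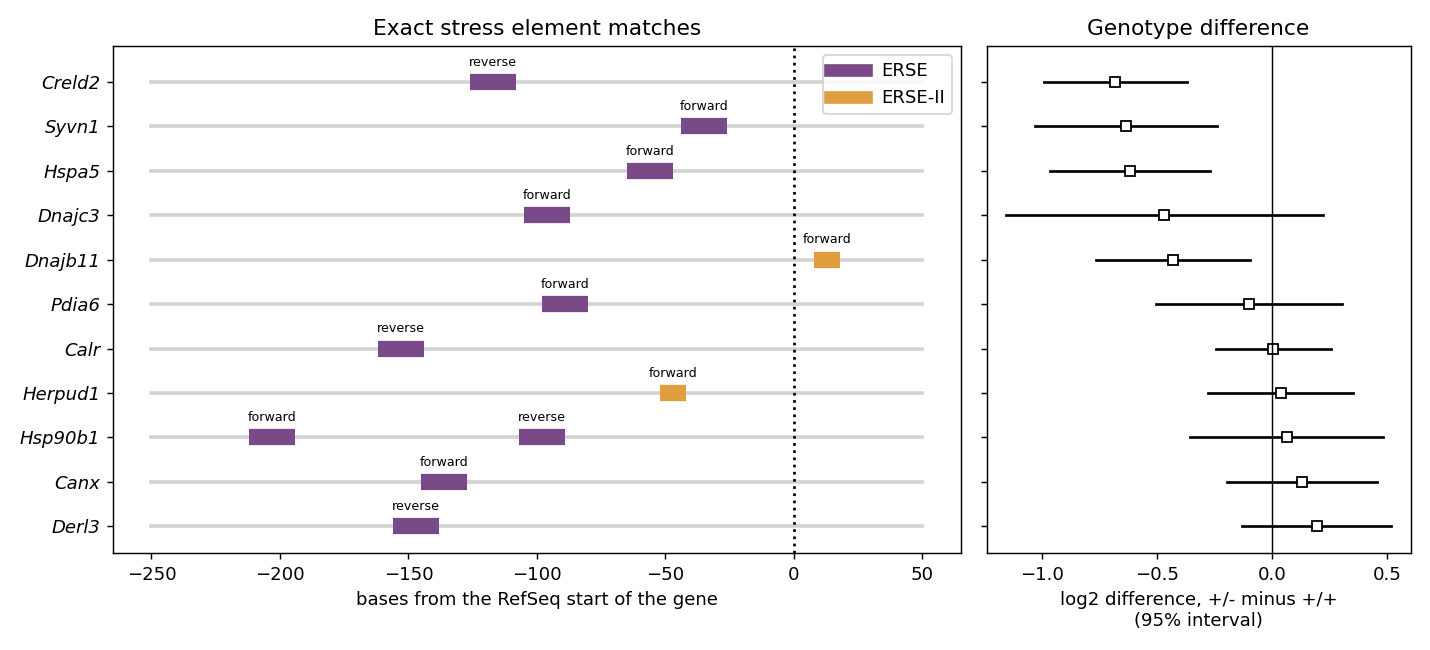
Left, positions of exact ERSE and ERSE-II matches in bases from the RefSeq start (x axis) for the 11 genes that hold one, with the direction of each match. Right, the log2 difference between MTAP+/- and MTAP+/+ liver with its 95% interval, from -0.68 for Creld2 to 0.19 for Derl3.

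Wider lists of pathway genes held no gene past the threshold. Of 129 listed genes for other folding enzymes, degradation factors, translocation, N-glycosylation, transport to the Golgi, the PERK branch and membrane-bound factors, 124 were measured and 0 passed limma's adjusted p of 0.05. At an unadjusted p under 0.05, 12 were lower (9.68%, against 4.74% of all genes) and 3 higher (2.42%, against 4.4%), and the median difference of the 124 was -0.07. These lists too were chosen with earlier results of these data known, so the shares are a description. In the PERK branch 2 of 11 were lower at an unadjusted p under 0.05, Ddit4 and Sesn2 (-0.26). Ddit4, an inhibitor of mTOR signalling that also responds to other stresses, gave 5.78, 6.37, 5.59 and 5.95 in heterozygous livers 1 to 4 and 7.67, 6.96, 7.59 and 6.52 in wild-type livers 1 to 4. All heterozygous livers were below all wild-type livers (-1.26 ± 0.25, SE, adjusted p = 0.168). The other 9 ranged from -0.33 (Bbc3) to 0.25 (Nupr1), with Atf4 at -0.11, Ddit3, which encodes CHOP, at -0.08 and Trib3 at -0.10.

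Of 15 other degradation genes 1 was lower at an unadjusted p under 0.05, the ubiquitin-conjugating enzyme Ube2g2 (-0.45 ± 0.11, adjusted p = 0.24), with no overlap between groups. The counts in the rest of this paragraph follow the same rule, by which 4.74% of all genes were lower and 4.4% higher. Of 20 glycosylation genes 3 were lower, the mannosyltransferases Alg2 (-0.53) and Alg12 (-0.36) and the glucosidase Mogs (-0.33). Of 24 transport genes 3 were lower, among them the COPII coat genes Sec24d (-0.37) and Sec23b (-0.47). Of 12 membrane-bound factors and relatives 2 were lower, the transcription factors Creb3l2 (-0.70) and Creb3l3 (-0.28), the latter a liver factor activated by cleavage like ATF6. Further oxidation and disulfide genes had 0 of 12 lower by this rule and 1 higher, Tmx1 (0.40). Other folding genes had 0 of 13 lower by it and 1 higher, the dim Fkbp14 (0.44). Translocation genes had 1 of 17 lower, Srp19 (-0.37), and 1 higher, Tram2 (0.28). All of these single genes had adjusted p-values above the threshold.

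Fits with the clock score, which moved with genotype, gave fewer low p-values. Because the score did not overlap between genotypes, such a fit estimates the genotype difference less precisely and cannot tell clock and genotype apart. With the score as a covariate, 4 of the 40 genes had an unadjusted p under 0.05, all lower. These were Dnajb9 (-1.28), Manf (-0.62), Eif2ak3 (-0.87) and Sel1l (-0.63), and 1.44% of all genes were lower by that rule. In that fit Hspa5 was at -0.69, Creld2 at -0.58, Syvn1 at -0.73, Dnajb11 at -0.38 and Wfs1 at -0.45. No gene passed the adjusted threshold (limma, 0 of 18193, with 591 at an unadjusted p under 0.05).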

How the data were processed

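Total RNA of 8 livers was isolated with TRIzol, biotin-labelled and hybridised to Affymetrix arrays, per the labels' protocols. The authors deposited 1 log2 value per probe set and array, made with RMA per the submitters' processing notes. For RMA's software and settings the sources name nothing, and the log base follows from the range (1.64 to 14.7). RMA normalises between arrays and compresses differences of dim probe sets. The 4 arrays per genotype limit the precision.

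Of 45101 probe sets 64 controls were left out; 34945 had exactly 1 gene symbol in the platform annotation, 932 several and 9160 none, and 34741 were matched by gene ID to RefSeq. Each of 18193 genes was represented by its probe set with the highest mean. The 96 member probe sets covered 40 genes, 27 of them with several, and 14 probe sets of 7 genes disagreed by over 0.5 log2 units or in sign with a change over 0.2. Levels of different probe sets were not compared.

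Genotypes were compared with limma 3.58.1 in R 4.3.3 (lmFit, eBayes, two-sided) over all genes, with Benjamini-Hochberg adjustment over all 18193 and a threshold of 0.05. Exact two-sided permutation tests used all 70 ways to split the mice 4 and 4 (smallest p 0.0286); they were made for the 40 members and are unadjusted. The 14 members with the smallest p are given with every value, and up to 3 genes of smallest p per wider list; the choice of Atf4, Ddit3 and Trib3 came after seeing their values. The members and lists were chosen with earlier results of these data known. The procedure was tested on simulated data. The labels do not say whether replicate numbers pair the mice. Correlations of deviations between mice of the same number, -0.07 to 0.23, cannot settle this with 4 mice per genotype. Promoters come from RefSeq, GRCm38.p6.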

Additional observations from a re-analysis of the deposited data

Results flagged for a closer look

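Each member was checked in each genotype for a liver far from the other 3, by the gap to the nearest liver over the whole range. This held for 6 of 80 groups of 4, where chance gives about 1 in 20, or 4. Sdf2l1 was flagged on both sides, with heterozygous liver 1 at 5.43 (next 6.15) and wild-type liver 2 at 7.14 (next 6.17). Heterozygous liver 2 was high for Eif2ak3 (5.40, next 4.90) and low for Spcs1 (10.31, next 11.06). Wild-type liver 4 was high for Calr (12.48, next 12.21) and wild-type liver 1 for Ssr2 (8.74, next 8.48).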

How the results depend on the processing

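The count of members past the threshold, 1 in the fit reported, was 0 by limma with all probe sets of a gene averaged, with genes of a mean under 6 left out, and with the replicate block, the clock score covariate or the 3' minus 5' covariate, and 0 to 1 when 1 mouse was left out. At an unadjusted p under 0.05 these 5 fits gave 7, 9, 13, 4 and 10 members, against 10, where 8.61%, 12.9%, 10.3%, 3.25% and 10.5% of all genes passed, against 9.14%. Leaving out 1 mouse gave 9 to 14 members and 6.27% to 12.2% of all genes. The count over all genes, 9, was 4, 1, 6, 0 and 8 in the same 5 fits and 3 to 20 when 1 mouse was left out. The members' median stayed below 0 throughout, from -0.11 to -0.007. With the replicate block Dnajb9 had a limma adjusted p of 0.0673. Whether the mice are paired by number could not be settled. Correlations of deviations were -0.07, 0.22, 0.005 and 0.23, and 4 of 8 mice correlated best with their own number. Of the 14 members given in full, the sign turned in 2 fits, for Ern1 with its probe sets averaged (0.031) and for Atf6 with the clock score covariate (-0.032). For the other 26 members, none of them past either threshold in the fit reported, the sign turned in 56 fits and stayed in 404. The causes were not tested. With 4 mice per genotype, the SE of a member's difference reached 0.31 (Dnajc3), and signal over background could not be judged from RMA values.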
